A study of Homo sapiens with 9 samples.

Results

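The genes described here are 10 surface molecules of B cells whose expression has been linked to EBNA2, the nuclear protein with which Epstein-Barr virus turns on host genes: CR2, FCER2, CD80, CD86, CD40, CD83, CD58, ICAM1, SLAMF1 and CD44. They were taken as every probe set of the array whose only gene symbol in the platform annotation is one of these names. This gave 39 probe sets of the 54675 on the array, for all 10 genes of the 19775 genes measured. Each gene was represented by its probe set with the highest mean log2 intensity over all arrays, and all 39 probe sets are accounted for below.

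RNA of P493-6, an established line of human B lymphocytes, was measured on 9 single-colour arrays: 4 labelled high Myc, 3 labelled low Myc and 2 labelled no Myc. The labels name no treatment, dose, time or culture for these groups, so p-values reflect the spread between arrays alone, and that spread may be technical. As background, the line is known for a MYC transgene under tetracycline control and for an EBNA2 that works only when estrogen is given, and every group is this 1 line. Whether EBNA2 was active in any group is not in the labels, and EBNA2 itself was not analysed here.

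EBNA2 does not bind DNA itself. It is brought to enhancers and promoters by cellular proteins, above all RBPJ, the DNA-binding partner of Notch, and PU.1 (SPI1), and there it raises transcription. When it drives resting B cells into growth, the cells put activation molecules on their surface. CR2 (CD21) and FCER2 (CD23) are the classic examples of surface molecules linked to EBNA2. The costimulators CD80 and CD86, the adhesion molecules ICAM1 and CD58 and the signalling receptors CD40 and SLAMF1 are further marks of such lymphoblasts. Several of these genes are also known to respond to NF-kappaB.

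A pair of libraries need naming before the results. MYC itself read 11326 to 15404 in high Myc, 1443 to 2526 in low Myc, 2803 on the library labelled no Myc replicate 1 and 416 on no Myc replicate 2, so the first no Myc library stood above every low Myc array and went against its label. Every direction given against no Myc includes that library, whose value comes first of the pair, unless it is said to be left out. Of the 10 genes 9 were higher on it than on no Myc replicate 2, whereas 49.5% of all genes were. The median difference over the 10 was 0.26 (log2). High Myc replicate 2 fitted its label in MYC (11326) but stood apart in the genes described here. All 10 were higher on it than on each of the 3 other high Myc arrays. Against the mean of those 3 arrays, all 10 were higher on it, by a median of 1.36 (log2), whereas 45.6% of all genes were above that mean. Of the 1204 genes called between high and low Myc without this array, it lay at a median of 49.7% of the way from the other high Myc arrays to the low Myc mean. The median was 66% for the 588 of these that were lower in high Myc, as the 10 genes were, and 32.4% for the 616 that were higher. Results for the 10 genes and the counts of called list genes are therefore given with and without high Myc replicate 2. Leaving it out lowers the high Myc mean of all 10 by construction, since it was their highest high Myc array. The larger counts of the 10 without it follow in part from that choice. Array medians were 75.3 to 80.3, and arrays correlated across all genes at 0.976 to 0.992 when of 1 group and at 0.917 to 0.982 otherwise.

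**Figure D1:**
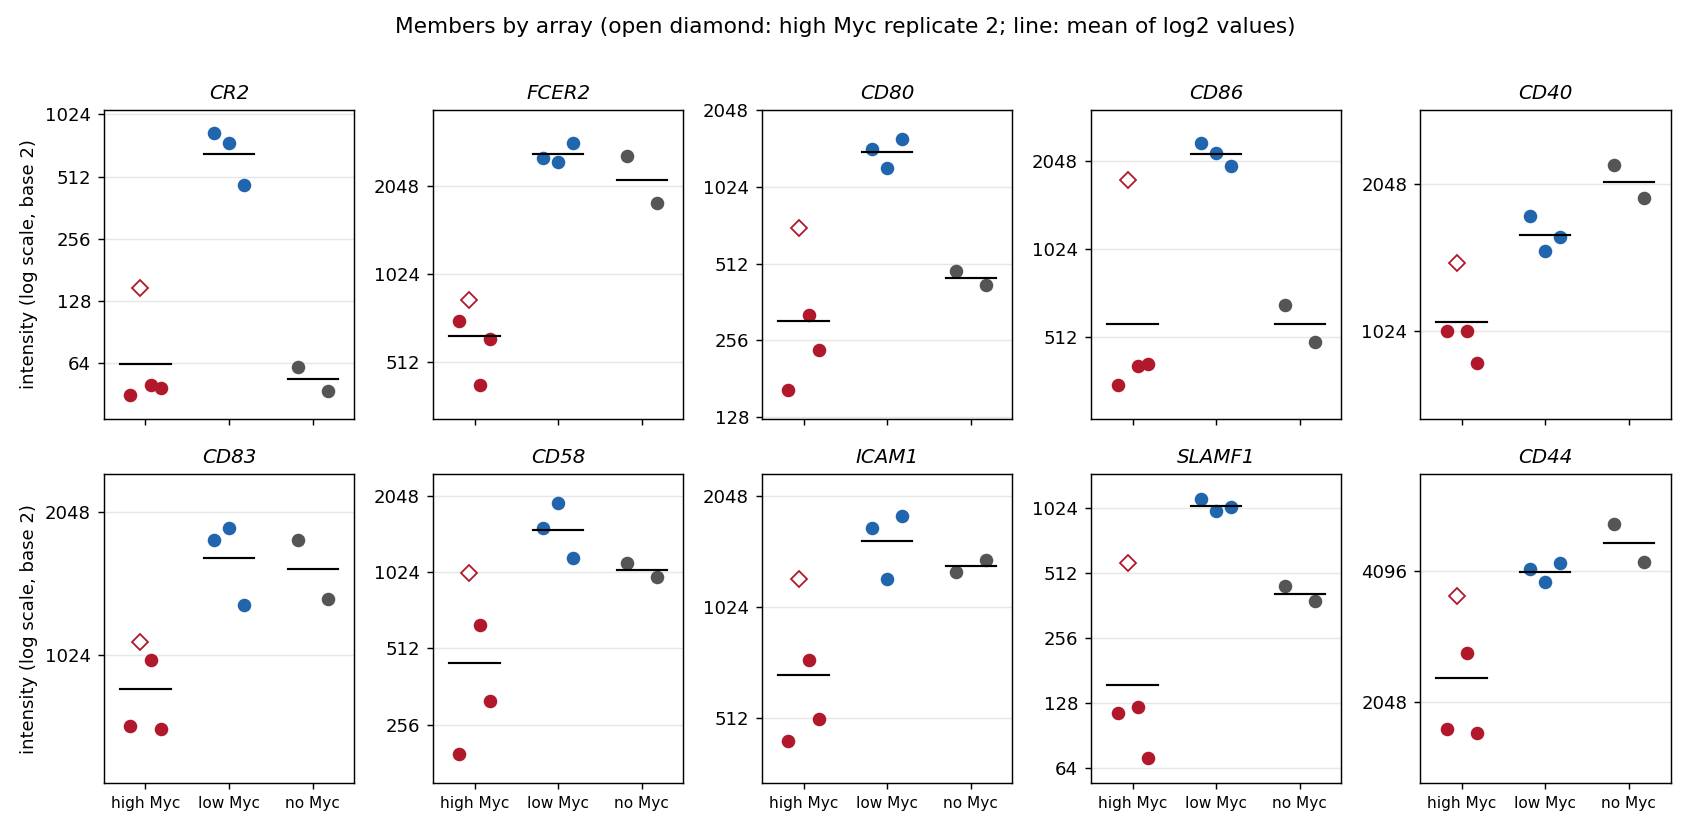
Intensity of the 10 genes (log axis, base 2) on each array in the high Myc, low Myc and no Myc groups; each panel has its own scale, points are arrays, the open diamond is high Myc replicate 2 and the line is the mean of the log2 values. CR2, CD80, CD86 and SLAMF1 are highest on the 3 low Myc arrays, with CR2 at 464 to 827 there, while FCER2, CD40, CD83 and CD44 are lower on the 4 high Myc arrays than on all others.

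The high Myc group had the lowest mean for 9 of the 10 genes, all but CR2, and the low Myc group the highest for 8, all but CD40 and CD44. By limma, a gene being called at a Benjamini-Hochberg adjusted p under 0.05 over all 19775 genes, 5 of 10 were lower in high Myc than in low Myc: CR2, FCER2, CD80, CD83 and SLAMF1. In that comparison 1.27% of all genes were called lower and 2.33% higher, and none of the 10 was called higher. The median log2 difference of the 10 was -1.84, against 0.00 for all genes, and all 10 differences were negative. All 10 passed an unadjusted p under 0.05. For 9 of the 10, all but ICAM1, every high Myc array was below every low Myc array at the brightest probe set, which held for 4.66% of all genes. At the next brightest CD44 probe set these groups overlapped, with 2637 on high Myc replicate 2 and 1589 on low Myc replicate 2. Without high Myc replicate 2, the highest high Myc array in all 10, all 10 were called lower, with a median of -2.18 (2.97% of all genes were called lower). All 10 then lay below low Myc without overlap (7.89% of all genes did). Leaving out any other single array gave a count of 2 or 3.

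Against no Myc, 4 of the 10 were lower in high Myc, namely FCER2, CD40, CD83 and CD44, and none was higher. Over all genes 9.0% were called lower and 14.2% higher. The median log2 difference of the 10 was -0.96, against -0.01 for all genes, and 9 of 10 were negative. All high Myc arrays were below both no Myc arrays for 5 of the 10, the 4 genes called and ICAM1, and for 17.8% of all genes. Without high Myc replicate 2 both counts were 9 of 10, all but CR2 (8.58% of all genes were called lower, and 20% did not overlap). Leaving out the library labelled no Myc replicate 1, FCER2 alone kept its call, and fewer of all genes were called lower too. The no Myc group was then 1 array, assumed to vary like the other groups.

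In low Myc, 2 of the 10 were higher than in no Myc, CR2 and CD80, and none was lower, by limma or at an unadjusted p under 0.05. Over all genes 11.3% were called higher and 8.55% lower, so the count of 2 is near the background. The median log2 difference was 0.41, against 0.00 for all genes. CR2, CD80, CD86, CD58 and SLAMF1 were higher on every low Myc array than on both no Myc arrays, as were 20% of all genes, while CD40 and CD44 were lower on every low Myc array, as were 17.6%. At the next brightest CD44 probe set low and no Myc overlapped, at 1589 to 3719 and 3211 to 3260. Without high Myc replicate 2, which enters this comparison only through the shared estimate of the spread, CD86 and SLAMF1 were called higher too, 4 of 10 (11.8% of all genes). Leaving out any other single array gave a count of 1, or 2 for high Myc replicate 1. The comparisons share arrays in pairs, so they do not count as independent of each other.

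**Figure D2:**
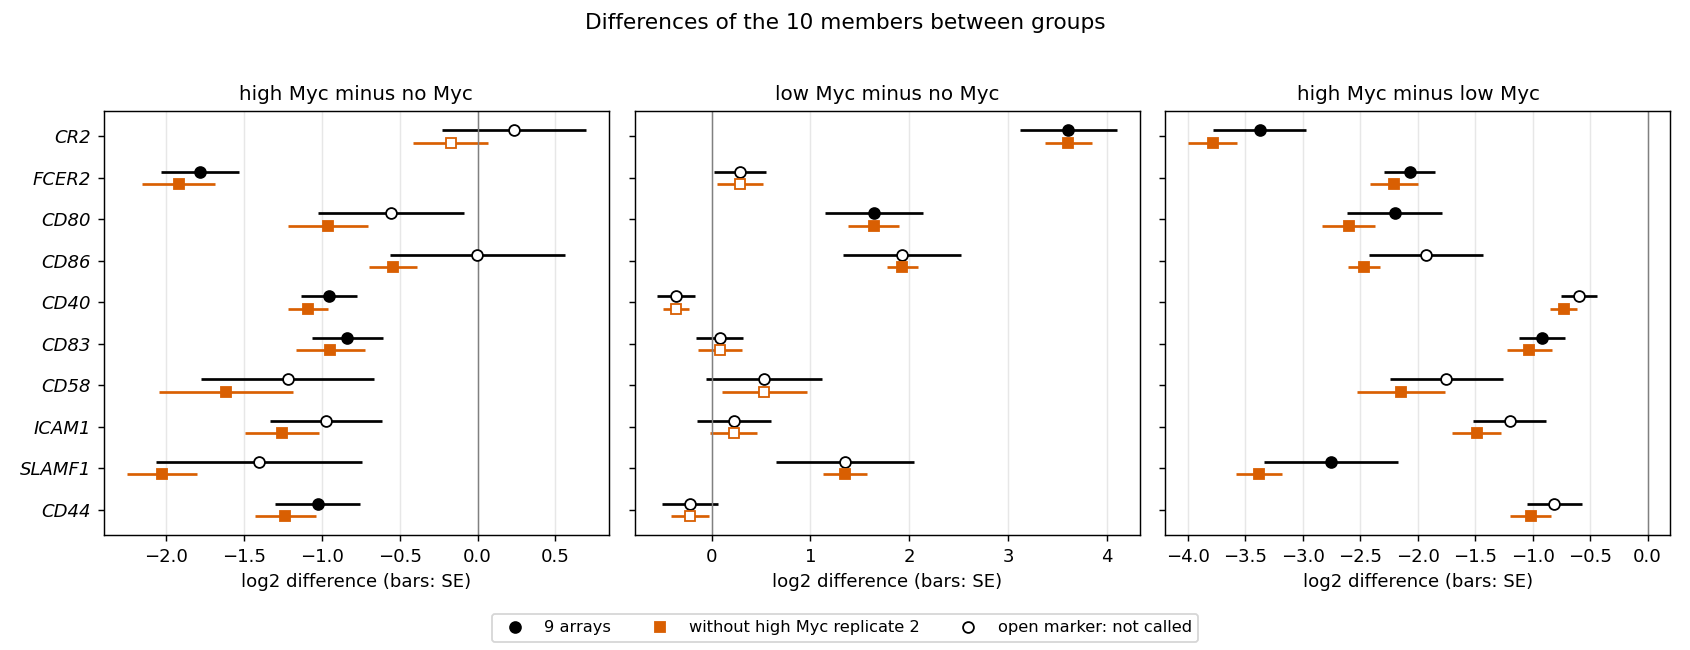
Log2 differences of the 10 genes for high Myc minus no Myc, low Myc minus no Myc and high Myc minus low Myc, with bars of 1 SE; black circles use 9 arrays, orange squares leave out high Myc replicate 2, and filled markers were called. Every difference lies below 0 between high and low Myc, while between low and no Myc CR2, CD80, CD86 and SLAMF1 lie between 1.35 and 3.61 and the 6 others between -0.36 and 0.53.

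CR2 and FCER2 are receptors for complement and for IgE, and they differed in the no Myc group. CR2 (CD21) binds C3d on opsonised antigen and is the receptor through which Epstein-Barr virus enters B cells. It lies on chromosome 1, 207454328 to 207489892 (GRCh38.p14, Entrez gene 1380). Its intensity was 45.0, 148, 50.1 and 48.5 on high Myc replicates 1 to 4, 827, 744 and 464 on low Myc replicates 1 to 3, and 61.5 on the library labelled no Myc replicate 1 and 47.3 on no Myc replicate 2. The low Myc arrays stood far above all others, while the high Myc and no Myc arrays overlapped. CR2 was 10.4-fold lower in high Myc than in low Myc (log2 -3.38 ± 0.41 SE, adjusted p = 0.00456) and 12.2-fold higher in low Myc than in no Myc (3.61 ± 0.49, adjusted p = 0.00141). Both calls held in all 9 fits that left out 1 array. These folds are not exact, since outside low Myc and high Myc replicate 2 CR2 read below every array's median intensity. Between high and no Myc the difference was 0.23 with a 95% interval of -0.82 to 1.28 (adjusted p = 0.833). It was -0.17 without high Myc replicate 2, and high and low Myc then differed by -3.78 ± 0.21. Its other probe set read 12.7 to 15.7 on all 9 arrays and was not called in any comparison.

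FCER2 (CD23), the low-affinity IgE receptor, regulates IgE responses and is shed from activated B cells. It lies on chromosome 19, 7688776 to 7702131 (Entrez gene 2208). It read 707, 831, 424 and 611 on the high Myc arrays, 2553, 2471 and 2868 on the low Myc arrays, and 2590.5 and 1788 on the no Myc arrays. All 4 high Myc arrays were below all 5 others, and the low and no Myc arrays overlapped. FCER2 in high Myc was 3.45-fold lower than in the no Myc group (log2 -1.78 ± 0.25, adjusted p = 0.00103) and 4.20-fold lower than in the low Myc group (-2.07 ± 0.22, adjusted p = 0.00272). It was called in both comparisons in all 9 fits that left out 1 array, with -1.92 ± 0.23 and -2.21 ± 0.21 when that array was high Myc replicate 2. Low and no Myc differed by 0.29, with a 95% interval of -0.32 to 0.89 (adjusted p = 0.622). The second FCER2 probe set gave -1.65 ± 0.25 against no Myc and -1.91 ± 0.22 against low Myc. High Myc replicate 2 was nearest to its group in this gene, at 24.9% of the way from the other high Myc arrays to the low Myc mean, against 42.5% to 87.9% in the 9 other genes.

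The stretches before the transcription starts of CR2 and FCER2 are shown because their calls held whichever array was left out, and because sites of MYC and of RBPJ, the factor through which EBNA2 acts, can be looked for in them. The sequences are RefSeq's (GRCh38.p14), 250 bases 5′ to 3′ on the gene's own strand, and capitals mark every match to the motifs named below.
CR2 before its start, chr1:207454078-207454327, plus strand: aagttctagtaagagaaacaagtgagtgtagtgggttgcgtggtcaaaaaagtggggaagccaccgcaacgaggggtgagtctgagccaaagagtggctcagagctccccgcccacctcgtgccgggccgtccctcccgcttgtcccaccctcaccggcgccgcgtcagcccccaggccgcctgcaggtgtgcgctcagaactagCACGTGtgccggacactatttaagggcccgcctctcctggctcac
FCER2 before its upstream start, chr19:7702132-7702381, minus strand: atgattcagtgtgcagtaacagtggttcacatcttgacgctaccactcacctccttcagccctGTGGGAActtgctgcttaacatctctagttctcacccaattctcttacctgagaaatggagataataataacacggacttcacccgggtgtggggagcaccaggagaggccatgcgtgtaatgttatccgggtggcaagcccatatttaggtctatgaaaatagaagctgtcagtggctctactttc
FCER2 before its downstream start, chr19:7699442-7699691, minus strand: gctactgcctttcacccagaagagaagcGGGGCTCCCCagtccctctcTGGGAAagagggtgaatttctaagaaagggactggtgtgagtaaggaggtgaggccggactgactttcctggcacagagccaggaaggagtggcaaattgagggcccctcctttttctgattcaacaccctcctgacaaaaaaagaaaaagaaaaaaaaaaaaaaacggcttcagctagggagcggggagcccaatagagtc
The motifs were GTGGGAA and its shorter form TGGGAA for RBPJ, which overlap each other, CACGTG for the E-box that MYC and MAX bind, GAGGAA for PU.1, and the NF-kappaB site of 10 bases, on both strands. For NF-kappaB the letters were GGGRNNYYCC, where R is A or G, Y is C or T and N is any base. All motifs were searched from 250 bases before to 50 bases after each start. CR2 has 1 E-box, 45 bases before its start, and neither RBPJ form. FCER2 has GTGGGAA 187 bases before its upstream start, and TGGGAA 202 bases and an NF-kappaB match 222 bases before its downstream start. Among the 35116 windows of all genes, 7.26% held CACGTG, 6.25% GTGGGAA, 24.0% TGGGAA, 27.9% GAGGAA and 11.3% an NF-kappaB match. A match is a stretch of letters and not a site shown to be bound.

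CD80 (B7-1) and CD86 (B7-2), the ligands of CD28 and CTLA4 on T cells, were highest in low Myc. CD80 (chromosome 3, 119524293 to 119559614) read 164, 708, 323 and 235 on the high Myc arrays, 1450.3, 1215 and 1582 on the low Myc arrays, and 479.7 and 424 on the no Myc arrays. The low Myc arrays were above all others, and high Myc replicate 2 was the only high Myc array above the no Myc arrays. CD80 was 4.59-fold lower in high Myc than in low Myc (log2 -2.20 ± 0.41, adjusted p = 0.0271) and 3.12-fold higher in low Myc than in no Myc (1.64 ± 0.49, adjusted p = 0.0461). The first call held when high Myc replicate 2 (-2.60) or low Myc replicate 2 (-2.31) was left out and was lost in the 7 other fits that left out 1 array (differences of -2.23 to -1.90, adjusted p of 0.0525 to 0.0941). The second held without high Myc replicate 1 or 2 (1.64 in both) and was lost in the 7 others (1.55 to 1.75, adjusted p of 0.0629 to 0.191). High and no Myc differed by -0.56 (95% interval -1.62 to 0.50, adjusted p = 0.532), and by -0.96 ± 0.26 without high Myc replicate 2 (adjusted p = 0.0304).

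CD86 (chromosome 3, 122055362 to 122121136) read 349, 1752, 407 and 413 on the high Myc arrays, 2346, 2178 and 1961 on the low Myc arrays, and 656 and 489.5 on the no Myc arrays. High Myc replicate 2 lay just under the low Myc arrays and the 3 other high Myc arrays below the no Myc arrays. With 9 arrays this probe set was called in no comparison: the log2 differences were -1.93 ± 0.50 between high and low Myc (adjusted p = 0.0744), 1.93 ± 0.60 between low and no Myc (adjusted p = 0.0517) and 0.00 between high and no Myc (95% interval -1.28 to 1.28). All 3 were called without high Myc replicate 2, at -2.47 ± 0.14 (adjusted p = 7.49e-05), 1.93 ± 0.16 (adjusted p = 0.000248) and -0.54 ± 0.16 (adjusted p = 0.04). A dimmer CD86 probe set was called with 9 arrays, over the probe sets with 1 symbol, at -1.77 ± 0.34 between high and low Myc (adjusted p = 0.0389) and 1.65 ± 0.40 between low and no Myc (adjusted p = 0.0244). CD86 has a pair of annotated starts, and the one further downstream is shown because it holds the only RBPJ letters found outside FCER2.
CD86 before its downstream start, chr3:122077534-122077783, plus strand: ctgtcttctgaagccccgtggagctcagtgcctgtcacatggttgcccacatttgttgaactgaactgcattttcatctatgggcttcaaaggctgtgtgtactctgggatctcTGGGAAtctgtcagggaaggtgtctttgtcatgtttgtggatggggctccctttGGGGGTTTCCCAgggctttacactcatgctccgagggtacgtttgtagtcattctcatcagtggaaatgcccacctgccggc
It holds TGGGAA 136 bases before the start and, on the opposite strand, 76 bases before it, where it overlaps NF-kappaB matches 81 and 82 bases before the start. The upstream start has GAGGAA letters only. Promoter windows were listed for 9 of the 10 genes, 12 windows in all. Of these 1 held GTGGGAA, 3 TGGGAA, 1 CACGTG, 2 GAGGAA and 3 an NF-kappaB match. The windows of CD80, ICAM1, SLAMF1 and CD44 held none of these exact patterns. Sites that depart from the patterns were not searched for, so a window without a match may still hold a site.

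SLAMF1 (CD150), a receptor that binds itself on neighbouring lymphocytes and is the entry receptor of measles virus, had the widest range on the high Myc arrays. SLAMF1 (chromosome 1, 160608106 to 160647044) read 116, 566, 123 and 71.2 on the high Myc arrays, 1125, 986 and 1032 on the low Myc arrays, and 444 and 378 on the no Myc arrays. The low Myc arrays were above all others, and high Myc replicate 2 was again the only high Myc array above the no Myc arrays. SLAMF1 was 6.76-fold lower in high Myc than in low Myc (log2 -2.76 ± 0.58, adjusted p = 0.039), a call that held only without high Myc replicate 2 among the 9 fits that left out 1 array (-3.38 there, and -2.80 to -2.38 with adjusted p of 0.0663 to 0.129 in the others). Low and no Myc differed by 1.35 ± 0.70 (adjusted p = 0.261) and high and no Myc by -1.41 ± 0.66 (adjusted p = 0.197). Both were called without high Myc replicate 2, at 1.35 ± 0.23 (adjusted p = 0.00405) and -2.03 ± 0.23 (adjusted p = 0.000771), so that SLAMF1 then stood in the order low Myc, no Myc, high Myc with each step called. With 9 arrays its dimmer probe sets were 2.57- and 3.93-fold lower in high Myc than in low Myc, and only the first was called. Tested by limma over the probe sets with 1 symbol, the brightest was not called between high and low Myc (adjusted p = 0.0543).

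CD40 and CD83 were lower in high Myc than in the no Myc group, by less than 2-fold at their brightest probe sets. CD40, the receptor of the TNF family through which T cells drive B-cell growth, lies on chromosome 20, 46118314 to 46129858. It read 1023, 1414, 1026 and 881 on the high Myc arrays, 1765, 1493 and 1599.9 on the low Myc arrays, and 2239.9 and 1918 on the no Myc arrays. The 3 groups did not overlap and ran in the order no Myc, low Myc, high Myc, the only such order among the 10 genes besides CD44. CD40 in high Myc was 1.94-fold lower than in the no Myc group (log2 -0.95 ± 0.18, adjusted p = 0.0041), which became -0.84 with an adjusted p of 0.0541, and no call, once the library labelled no Myc replicate 1 was left out, and -1.09 ± 0.13 without high Myc replicate 2. The 3 other CD40 probe sets, all called, were 2.60-, 2.46- and 3.39-fold lower in high Myc than in the no Myc group. At the brightest the steps were -0.60 ± 0.16 between high and low Myc (adjusted p = 0.0779, and -0.73 ± 0.12 with adjusted p = 0.00939 without high Myc replicate 2) and -0.36 between low and no Myc (95% interval -0.78 to 0.07, adjusted p = 0.268).

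CD83, a surface molecule of mature dendritic cells and activated B cells, lies on chromosome 6, 14117256 to 14136918. It read 726, 1089, 1000.05 and 716 on the high Myc arrays, 1789.6, 1889 and 1306 on the low Myc arrays, and 1784 and 1344 on the no Myc arrays. All high Myc arrays were below all others, and low and no Myc overlapped. CD83 was 1.89-fold lower in high Myc than in low Myc (log2 -0.92 ± 0.20, adjusted p = 0.0434) and 1.79-fold lower than in no Myc (-0.84 ± 0.23, adjusted p = 0.0262). The first call held when high Myc replicate 2 (-1.03) or low Myc replicate 3 (-1.08) was left out and was lost in the 7 other fits that left out 1 array (-0.99 to -0.82, adjusted p of 0.064 to 0.153). The second was -0.95 ± 0.22 without high Myc replicate 2, and was lost without high Myc replicate 1 or 4 (-0.75 and -0.74, adjusted p of 0.0577 and 0.0614), and when the library labelled no Myc replicate 1 was left out (-0.63, adjusted p = 0.24).

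Of the adhesion molecules, CD44 was called lower in high Myc than in the no Myc group, and CD58 and ICAM1 were not called at their brightest probe sets with 9 arrays. CD44, the main hyaluronan receptor, lies on chromosome 11, 35139171 to 35232402. It read 1778, 3582, 2657 and 1734 on the high Myc arrays, 4131, 3860.2 and 4271 on the low Myc arrays, and 5260.1 and 4285 on the no Myc arrays. At this probe set the groups did not overlap, though low and no Myc met closely. At the next brightest, low Myc overlapped both other groups. CD44 in high Myc was 2.04-fold lower than in the no Myc group (log2 -1.03 ± 0.27, adjusted p = 0.0235), a call lost on leaving out no Myc replicate 2 (-1.18, adjusted p = 0.0684) or the library labelled replicate 1 of that group (-0.88, adjusted p = 0.188). It was -1.24 ± 0.20 without high Myc replicate 2. High and low Myc differed by -0.81 ± 0.24 (adjusted p = 0.11), and by -1.02 ± 0.17 without high Myc replicate 2 (adjusted p = 0.0131). Low and no Myc differed by -0.22 (95% interval -0.87 to 0.43).

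CD58 (LFA-3), the ligand of CD2 on T cells, lies on chromosome 1, 116514534 to 116571026. It read 196, 1018, 632 and 318 on the high Myc arrays, 1526, 1923 and 1165 on the low Myc arrays, and 1109.8 and 979 on the no Myc arrays. The high Myc arrays spread from well below the no Myc arrays to level with them. CD58 differed by -1.75 ± 0.49 between high and low Myc (adjusted p = 0.0932), by -1.22 ± 0.56 between high and no Myc (adjusted p = 0.183) and by 0.53 ± 0.59 between low and no Myc (adjusted p = 0.703). Without high Myc replicate 2 the differences with high Myc were called, at -2.15 ± 0.38 (adjusted p = 0.0159) and -1.62 ± 0.43 (adjusted p = 0.0291). This probe set is of a type whose probes can also match other genes, and the next brightest pair, which can share probes with related transcripts, gave -1.83 and -1.78 between high and low Myc. A dim CD58 probe set of the gene-specific type was called lower in high Myc with 9 arrays, at -1.31 ± 0.23 against low Myc (adjusted p = 0.0267) and -1.72 ± 0.26 against no Myc (adjusted p = 0.00201). The dimmest gave -0.92 ± 0.21 and -0.65 ± 0.23 and was not called.

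ICAM1 (CD54), the ligand of the integrin LFA-1, lies on chromosome 19, 10271120 to 10286615. It read 446, 1217, 737 and 511 on the high Myc arrays, 1682, 1217 and 1803 on the low Myc arrays, and 1273 and 1370.1 on the no Myc arrays. High Myc replicate 2 and low Myc replicate 2 had the same value, so these groups met, while all high Myc arrays were below the no Myc arrays. ICAM1 differed by -1.20 ± 0.32 between high and low Myc (adjusted p = 0.0783), by -0.97 ± 0.36 between high and no Myc (adjusted p = 0.0909) and by 0.23 ± 0.38 between low and no Myc (adjusted p = 0.831). Without high Myc replicate 2 the differences with high Myc were called, at -1.49 ± 0.21 (adjusted p = 0.00555) and -1.26 ± 0.24 (adjusted p = 0.0062).

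The other probe sets of these genes mostly gave the same directions. Of the 39 probe sets, 33 had a mean log2 of at least 7, and all 33 were lower in high Myc than in low Myc, with log2 differences of -3.38 to -0.60. Against no Myc, 32 of the 33 were lower in high Myc, the exception being CR2. Tested one by one over the 41097 probe sets with 1 symbol, 8 of the 39 were called lower and 0 higher in high Myc than in low Myc (2.20% of all probe sets were called in either direction). Against no Myc, 11 were lower and 0 higher in high Myc (19.0% in either direction), among them all 4 of CD40. In low Myc 3 were higher and 0 lower than in the no Myc group (16.0%), 1 each of CR2, CD80 and CD86. For CD80 and CD86 this was not the brightest probe set. Probe sets of 1 gene share its transcripts, so they are not separate evidence.

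CD44 had 13 probe sets, of which 11 had a mean log2 of at least 7, and these differed from -2.07 to -0.78 between high and no Myc. The brightest one, used above, gave a smaller difference there (-1.03) than the 6 next brightest (-1.75 to -1.36). Low Myc replicate 2 was the lowest low Myc array on 11 of the 13, and by at least 1.5-fold on 8, up to 2.48-fold, but only by 1.07-fold on the brightest. CD44 is spliced into many forms, and which forms each probe set reads is not given in the sources used here.

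**Figure D3:**
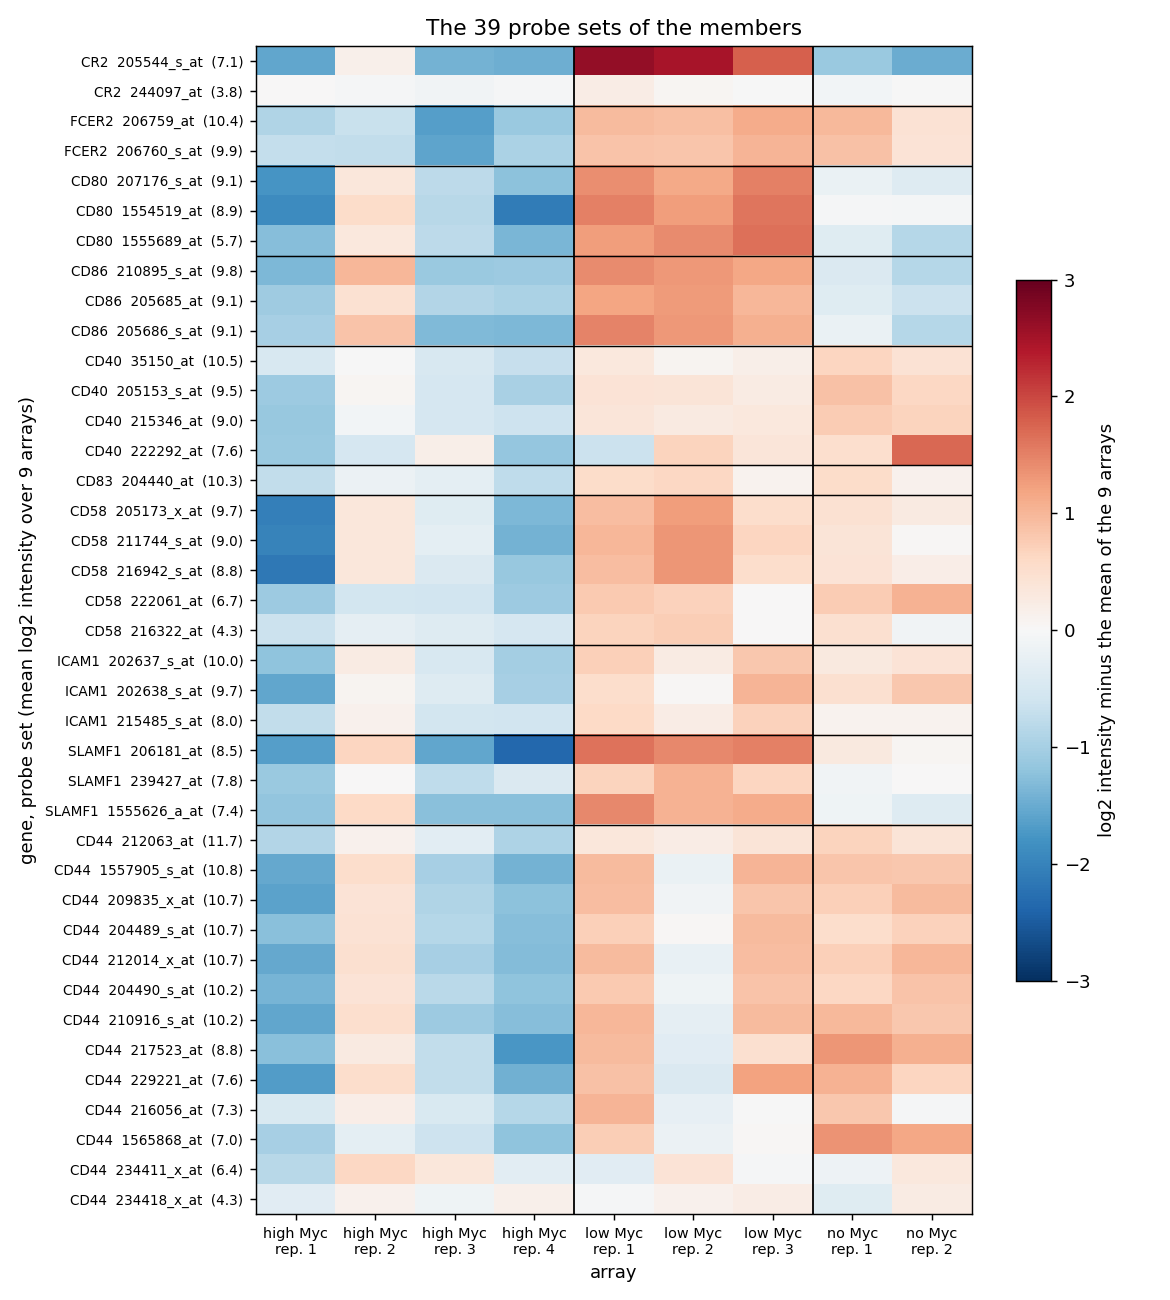
Log2 intensity of the 39 probe sets, each minus its mean over the 9 arrays (colour, from -3 to 3), with arrays in columns by group and probe sets in rows by gene; the number after each probe set is its mean log2 intensity. High Myc replicates 1, 3 and 4 are mostly blue and the low Myc arrays red, with high Myc replicate 2 between them, and low Myc replicate 2 is paler than the other low Myc arrays on most CD44 rows.

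RBPJ, which brings EBNA2 to DNA, did not pass the test in any comparison. Its probe set, as for CD58 above, is of the type whose probes can also match other genes. It read 1233, 1622, 1395 and 1021 on the high Myc arrays, 1326, 1259.8 and 1379 on the low Myc arrays, and 1152 and 1062 on the no Myc arrays, with log2 differences of 0.23 ± 0.17 (high minus no Myc), 0.26 ± 0.17 (low minus no Myc) and -0.02 ± 0.15 (high minus low Myc). In the list of EBNA2 cofactors and other known EBNA2 targets, 19 of 20 genes were measured. MYC is in this list, but the group labels name MYC, so its calls follow from the labels and say nothing about the list. In high Myc MYC (log2 3.57 ± 0.60) and ABHD6, a lipase (1.32 ± 0.39), were higher than in the no Myc group, and the kinase FGR (-0.95 ± 0.22) and SPI1 (-0.86 ± 0.16) were lower, 2 and 2 of 19 (14.2% of all genes were called higher and 9.0% lower). In low Myc CDK5R1, an activator of the kinase CDK5 (3.77 ± 0.97), ABHD6 (2.58 ± 0.41) and BATF, a transcription factor of activated lymphocytes (2.15 ± 0.53), were higher than in no Myc, and RAPGEF2 (-1.66 ± 0.49), SPI1 (-0.96 ± 0.17) and FGR (-0.84 ± 0.24) were lower, 3 and 3 of 19 (11.3% and 8.55% of all genes). In high Myc MYC was higher (2.70 ± 0.53) and CDK5R1 lower (-3.87 ± 0.81) than in low Myc, 1 and 1 of 19 (2.33% and 1.27%). The fold of CDK5R1 is not exact, since it read 18.4 to 26.2 on 3 high Myc arrays and 28.7 on no Myc replicate 2.

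The median log2 differences of these 19 genes were -0.43 (high minus no Myc), 0.46 (low minus no Myc) and -1.02 (high minus low Myc), against -0.01 for all genes in the first and 0.00 in the others. Low Myc had the highest group mean for 13 of the 19 and for 8 of the 10 surface molecules, as for 27.3% of all genes. High Myc replicate 2 stood apart here too. CCR7, a chemokine receptor named after its values were seen, read 97.4, 3494, 435 and 214 on the high Myc arrays, 4766, 3144 and 4887 on the low Myc arrays, and 1203 and 1351 on the no Myc arrays. Without that array 9 of the 19 were lower and 1 higher in high Myc than in low Myc (2.97% and 3.12% of all genes), 10 were lower and 2 higher than in no Myc (8.58% and 12.9%), and in low Myc 4 were higher and 3 lower than in no Myc (11.8% and 8.80%). Leaving out the library labelled no Myc replicate 1, which left 1 no Myc array, the medians were -0.30 (high minus no Myc) and -1.02 (high minus low Myc). Calls were lost in both comparisons, and fewer of all genes were called in that fit too. In low Myc the median difference from no Myc was then 0.35, and CDK5R1, BATF, RAPGEF2 and FGR were no longer called. The rise of MYC there follows from the choice of library, since the one left out was named for its MYC.

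**Figure D4:**
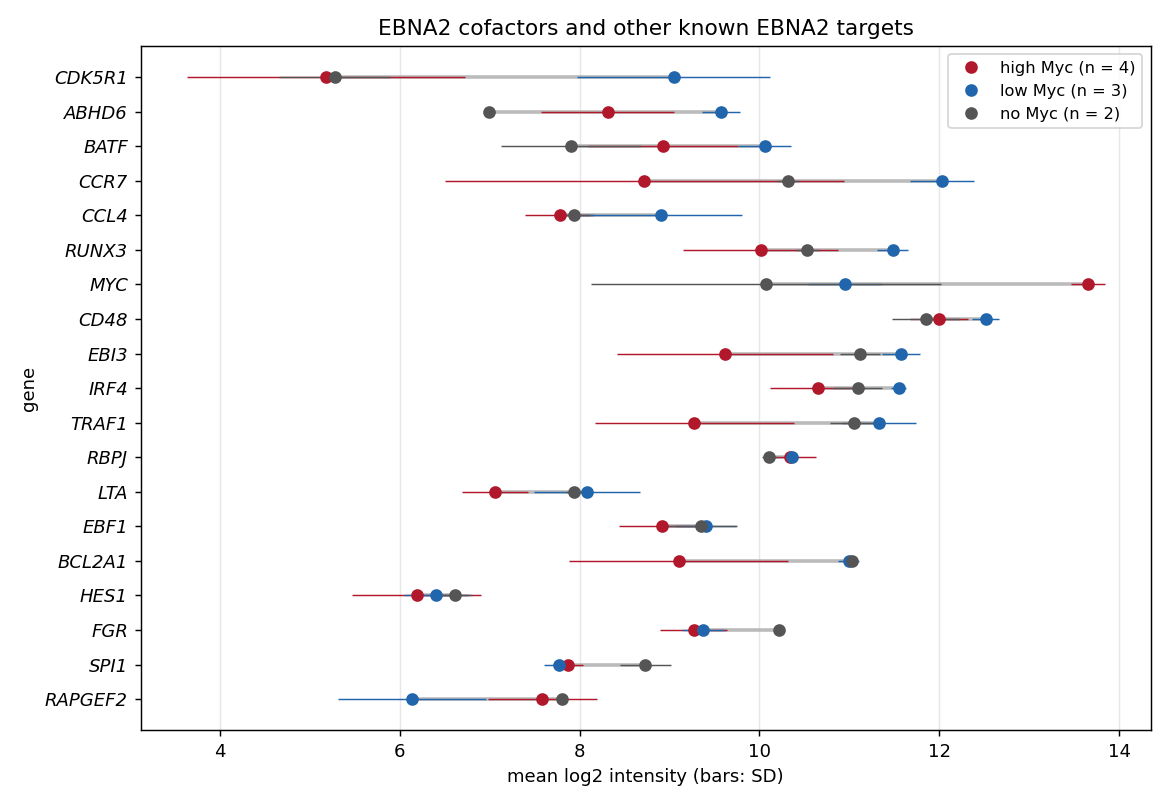
Mean log2 intensity (horizontal axis, bars of 1 SD) of the 19 measured EBNA2 cofactors and other known targets in high Myc (n = 4), low Myc (n = 3) and no Myc (n = 2), ordered by the low minus no Myc difference. Blue low Myc points lie furthest right for 13 of the 19 genes, and the bars of high Myc are wide for CCR7, CDK5R1, EBI3, BCL2A1 and TRAF1, where replicate 2 stands apart.

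Genes that carry the signal of CD40 to NF-kappaB were lower in high Myc in 6 of 12 measured cases relative to no Myc, and none was higher (9.0% and 14.2% of all genes), with a median of -0.66. They were led by the inhibitor TNFAIP3 (log2 -1.49 ± 0.47), the kinase IKBKB (-1.43 ± 0.14), the inhibitor NFKBIA (-1.41 ± 0.30) and BIRC2 (-0.67 ± 0.14). Leaving out the library labelled no Myc replicate 1, which left 1 no Myc array, the median was -0.63. Most of these calls were then lost, and fewer of all genes were called lower too. Without high Myc replicate 2 the count was 8 (8.58% of all genes were called lower). IKBKB was also lower in low Myc than in no Myc (-1.20 ± 0.14), the 1 call of 12 there, near the share of all genes called lower (8.55%). Between high and low Myc 0 of 12 were called (limma, 9 arrays), as 1.27% of all genes were called lower. There 7 were lower at an unadjusted p under 0.05, and 6 were called lower without high Myc replicate 2 (2.97% of all genes). The medians of the 12 were -0.19 for low minus no Myc and -0.48 for high minus low Myc.

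Among 14 measured ligands and counter-receptors, ITGAM, the integrin chain of complement receptor 3 and a partner of ICAM1, was lower in high Myc (-3.05 ± 0.18) and in low Myc (-3.40 ± 0.19) than in no Myc, as was CD2, the partner of CD58, in high Myc (-0.90 ± 0.27). The CD2 call was lost without high Myc replicate 2, and also on leaving out the library labelled no Myc replicate 1. HMMR, which binds hyaluronan and the mitotic spindle, was higher in high Myc (1.36 ± 0.14) and low Myc (1.69 ± 0.14), and FYN, a kinase that signals below SLAMF1, was higher in low Myc (1.22 ± 0.36), a call lost on leaving out that library. CD28 and CTLA4, which bind CD80 and CD86, were not called in any comparison, and 0 of the 14 were called between high and low Myc by limma with 9 arrays, against 2 lower at an unadjusted p under 0.05 and 1 called lower without high Myc replicate 2. The medians of the 14 were -0.09 (high minus no Myc), -0.17 (low minus no Myc) and 0.01 (high minus low Myc), near those of all genes.

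Among 19 measured relatives of the 10 genes, SLAMF6 (-1.21 ± 0.17), CD84 (-1.44 ± 0.34) and LY9 (-0.69 ± 0.21) were lower in high Myc than in the no Myc group, as was the costimulator ICOSLG (-0.61 ± 0.12), 4 of 19 with none higher (9.0% and 14.2% of all genes). SLAMF6 (2.0-fold) and CD84 (log2 -1.37 ± 0.30) were also lower in high Myc than in low Myc. In low Myc TNFRSF8 (CD30) was higher (1.46 ± 0.40) and ICOSLG lower (-0.63 ± 0.13) than in no Myc. Leaving out the library labelled no Myc replicate 1, SLAMF6 alone kept its calls in high Myc, and the calls in low Myc were lost. The no Myc group was then 1 array, and fewer of all genes were called too. Without high Myc replicate 2 LY9 was no longer called and CD274 (PD-L1) was, again 4 of 19 against no Myc (8.58% of all genes were called lower). In that fit 4 (SLAMF6, CD84, CD274 and TNFRSF8) were lower in high Myc than in low Myc (2.97% of all genes). The medians of the 19 were -0.24, -0.07 and -0.15 in the same order of comparisons.

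The genes whose log2 values followed FCER2 most closely over the 9 arrays, among 10091 genes with a mean log2 of at least 7, were GSTM1 (Pearson r = 0.979), VASP (0.972), SASH3 (0.965), SLAMF6 (0.961) and GSTM2 (0.957). GSTM1 and GSTM2 are near-identical relatives whose probes may share signal. Those closest to CR2 were SIAH2 (0.992), MUS81 (0.992), DAPK1 (0.989), DENND3 (0.986) and ARHGEF12 (0.982). The lists share no gene, and all 9 arrays, high Myc replicate 2 included, enter these values. They are descriptions of 9 arrays in 3 groups, so any gene with the same group means would score highly.

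Markers of the B-cell lineage were mostly highest in the no Myc group. All 5 measured (MS4A1, CD79A, CD79B, PAX5 and CD22) were lower in high Myc and 4 were lower in low Myc relative to no Myc (9.0% and 8.55% of all genes). They were led by CD79B at -2.20 ± 0.34 and -2.82 ± 0.36. CD22 was level between low and no Myc (-0.07 ± 0.20) and lower in high than in low Myc (-0.77 ± 0.17), the 1 call of 5 there (1.27% of all genes were called lower). Without high Myc replicate 2 CD79B was also called there, as higher in high Myc. The intensities of the 5 summed to 7472 to 14322 in high Myc, 8959 to 10073 in low Myc and 20904 to 28141 in no Myc. Leaving out the library labelled no Myc replicate 1, which left 1 no Myc array, the medians were -0.86 (high minus no Myc) and -1.16 (low minus no Myc). Several calls were then lost, and fewer of all genes were called too. Without high Myc replicate 2 the counts were again 5 and 4 (8.58% and 8.80% of all genes). The sum of 6 T-cell markers was 589 to 775 in high Myc, 572 to 704 in low Myc and 692 to 732 in no Myc, with 0 of 6 called in any comparison by limma and 0 at an unadjusted p under 0.05. For 6 myeloid and dendritic-cell markers it was 420 to 522 in high Myc, 495 to 616 in low Myc and 1332 to 1775 in no Myc, where CD1C carried the difference (mean log2 7.42, 7.38 and 10.16), ITGAX was lower in high than in no Myc (-0.88 ± 0.17), and CD14 and CSF1R stayed at a mean log2 of 5.21 to 5.47. The part of these shifts in the results above was not tested. The excess of the 3′ over the 5′ GAPDH probe set, a sign of RNA quality, was 0.01 to 0.24 (log2) in the high and low Myc groups, against 0.25 and 0.42 in no Myc. For ACTB it was 0.19, 0.16 and 0.14 on high Myc replicates 1, 3 and 4, -0.05 on high Myc replicate 2, -0.07 to 0.02 in low Myc, and 0.00 and -0.01 in no Myc, so high Myc replicate 2 lay apart from its group here too, among the low and no Myc arrays. The part of either in the results was not tested. In such bulk RNA, fewer cells that carry a transcript and less of it per cell cannot be told apart.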

How the data were processed

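Expression was measured with 54675 probe sets in 9 arrays. Per the submitters' processing notes the values were made with RMA, whose version is not given in the sources used here, and the authors deposited them as intensity on a linear scale. RMA gives all arrays a common distribution, so differences are relative to the array as a whole. The platform annotation named the probe sets (41097 had 1 symbol, 1801 several, 11777 none). Of those with 1 symbol, 41043 were matched to RefSeq through Entrez identifiers, and the RefSeq symbol was used. Each of 19775 genes was represented by its probe set with the highest mean log2. No genome build is named for the array, and coordinates are those of RefSeq (GRCh38.p14).

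Log2 of the deposited intensity was fitted as group means over all 9 arrays at once (limma 3.58.1, R 4.3.3, eBayes, 6 residual degrees of freedom, two-sided, Benjamini-Hochberg over all genes, called under 0.05). The procedure was tested on simulated data. The number of arrays limits the precision. The 10 genes and the 8 other lists (95 entries, 86 measured) were chosen with earlier results of these data known. The result of 1 of these lists is not reported here. Named were the 10 genes, MYC, RBPJ, up to 4 called genes per list and comparison by size, and the 5 genes most correlated with FCER2 and with CR2. Any other gene named is a member of a list. Alternatives covered normalization, a filter, other probe-set rules, the prior, array weights, the groups fitted, the replicate number as a block, the threshold and each array left out. The fit of only the 2 groups compared without high Myc replicate 2, and the other lists without each of 2 libraries, were added after seeing the data.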

Additional observations from a re-analysis of the deposited data

Results flagged for a closer look

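CR2 and CD86 each had 1 high Myc array far from the other 3. The gap between the highest array and the next, divided by the range of the 4 (log2 values), was 0.91 for CR2 and 0.896 for CD86, past the 95% critical value of Dixon's test. High Myc replicate 2 was that array both times, at 148 against 45.0 to 50.1 for CR2 and at 1752 against 349 to 413 for CD86. Of the 10 genes tested 2 passed, where chance flags about 1 group in 20, and the 10 share the same 4 arrays. In all 10 genes this array was the highest of its group, and it lay 24.9% (FCER2) to 87.9% (CD86) of the way from the other high Myc arrays to the low Myc mean.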

How the results depend on the processing

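The 10 differences between high and low Myc kept their direction under every alternative run, and the counts of calls varied. High Myc was called lower than no Myc in 4 of the 10 genes, in 2 with the replicate block, in 2 at an adjusted p under 0.01, in 7 with only the 2 groups compared and high Myc replicate 2 left out, and in 1 to 9 when each array was left out. Low Myc was called higher than no Myc in 2, in 1 with every probe set fitted on its own, with the replicate block (1) or at 0.01 (1), in 4 with only the 2 groups compared, in 4 without no Myc replicate 1 and high Myc replicate 2 together, in 4 in the added fit, and in 1 to 4 when each array was left out. High Myc was called lower than low Myc in 5, in 3 with each gene at the median of its probe sets, in 3 with every probe set fitted on its own, in 8 with array weights, in 2 with only the 2 groups compared, in 2 with the replicate block, in 2 at 0.01, in 10 without both doubted libraries, in 10 in the added fit, and in 2 to 10 when each array was left out. The share of all genes called moved with the setting too. For high Myc lower than low Myc it was 1.27% in the main fit and 0.89% with the median of the probe sets. It was 0.757% of all probe sets fitted on their own, and 3.88% with array weights. With only the 2 groups compared it was 0.612%, with the replicate block 0.172%, at 0.01 also 0.172%, and in the added fit 2.3%. The stricter threshold lowers counts by construction. Leaving out high Myc replicate 2 lowers the high Myc mean of all 10 genes by construction, since it was their highest high Myc array. For the other settings the cause was not tested. Of all genes, high Myc was called lower than no Myc in 9.0%, in 7.28% with the replicate block, 5.48% at 0.01 and 9.15% in the added fit. Low Myc was called higher than no Myc in 11.3%, in 10.3% with the replicate block, 6.06% at 0.01 and 8.19% with only the 2 groups compared. When each high or low Myc array was left out, these shares were 7.38% to 9.34% and 7.9% to 14.4%, and 0.223% to 2.97% for high Myc lower than low Myc.

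Signs turned only for differences that were not called with 9 arrays. CR2 in high minus no Myc was -0.17 without high Myc replicate 2 (range 0.42 to -0.17 over arrays left out) and in the added fit. CD86 in high minus no Myc was 0.042 with arrays centred on their median, 0.34 with the replicate block, 0.23, 0.16 and 0.15 without high Myc replicates 1, 3 and 4, and 0.21 without no Myc replicate 1 (range -0.54 to 0.23). CD83 in low minus no Myc was -0.02 without low Myc replicate 2 and -0.12 without no Myc replicate 2 (range -0.12 to 0.29), and ICAM1 there was -0.064 with the median of its probe sets. The replicate numbers share only a number: deviations of same-numbered arrays correlated at -0.31 to 0.47, with 4 of 7 pairs over 0.1, and 3 of 8 arrays correlated best with their own number. Intensities near the lowest, as for CR2 outside low Myc, bound its folds less firmly than those of brighter genes.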
